A study of Arabidopsis thaliana with 12 samples.

Results

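The step from closed bud to open flower was described by setting the 3 arrays of stage 13-14 flowers against the 3 arrays of stage 11-12 flowers, with 1 pair of arrays from each of 3 genotypes. These are 6 of the 12 arrays of a series on Arabidopsis thaliana flowers and stems, and they were chosen by the stage and genotype in the sample titles. The genotypes were Columbia, which is the wild type, arf6/arf6 ARF8/arf8 plants and the arf6 arf8 double mutant, all untreated and grown for 6 weeks in long days. The titles give the intermediate genotype as arf6/arf6 ARF8/arf8, whereas the design text gives ARF6/arf6 arf8/arf8. Under either name these plants keep 1 functional copy of the gene pair, and they are called single-copy plants below. Each genotype and stage was hybridised once, so no comparison within a genotype has a replicate. How many flowers or plants were pooled, and how stages were assigned in arf6 arf8, is not stated in the labels.

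At stages 11-12 the Arabidopsis bud is closed, the pollen is maturing and the tapetum, the anther layer that feeds the pollen and supplies its outer wall, is breaking down. At stages 13-14 the flower opens, stamen filaments and petals extend, anthers release pollen and the nectaries secrete. ARF6 and ARF8 belong to the auxin response factors, which bind DNA and carry auxin's effect on transcription. Flowers that lack both are known to stay closed, with short filaments and anthers that do not release pollen. The question here was which transcript changes between these stages occurred in all genotypes and which did not.

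The 6 arrays had median signals between 194 and 234 on the linear MAS5 scale, after the authors' global scaling. The single-copy array of stages 13-14 stood apart in its control probe sets. Its ratio of 3' to 5' GAPDH signal was 0.655, against 1.08 to 1.61 on the other 5 arrays. Its signal for the spiked bioB control was 133, against 209 to 266, and that for 25S ribosomal RNA was 41.5, against 65.7 to 147. Its ratio of 3' to 5' actin signal, 5.63, lay within the range of the other 5 arrays, 4.96 to 7.13. The counts of calls, of shared 2-fold steps and of earlier courses are given with and without it.

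Few transcripts passed the test for a step shared by the 3 genotypes, and most of those fell. Of 16825 probe sets that reached a signal of 100 on at least 1 of the 6 arrays, 139 were called (0.826%) at a limma adjusted p under 0.05 in a fit of log2(signal + 50) with genotype as a block. Of these, 118 were lower (0.701%) and 21 were higher (0.125%) at stages 13-14. All 139 moved in the same direction in each genotype, which the test favours. At an unadjusted limma p under 0.05 there were 998 higher and 937 lower, so the excess of falls was not seen at that threshold. A probe set that was not called may still share a step, as 3 pairs leave few degrees of freedom. The median step was -2.57 among those called lower and 1.87 among those called higher on the log2 scale, compared with 0.07 over all probe sets tested. A probe set of 1 gene lay behind 70 of the falls and 12 of the rises, and 13 of these 82 have a gene symbol in the tables used here.

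The count depended on the pairs of arrays and on the filter. Without the single-copy pair 22 probe sets were called, without the Columbia pair 248 and without the arf6 arf8 pair 768. Without the filter on dim probe sets none of 22746 was called by limma, with a smallest adjusted p of 0.0545 and 2393 probe sets at an unadjusted p under 0.05. Of 33 named genes with a call, 7 stayed past the threshold without the single-copy pair, 14 without the genotype block and none without the filter. Without the single-copy pair the limma adjusted p was 0.0491 for RALFL28, 0.0513 for AtVEX1, 0.0606 for LEA, 0.0777 for AT1G23240 and AT1G66850, and 0.128 for PRX52. The p-values measure how alike the step was in 3 genotypes, not the spread between plants. Because whole flowers were sampled, fewer cells of a type and less RNA per cell cannot be told apart in any of these values.

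The falls were large. Late embryogenesis abundant proteins are known for protecting cell contents during water loss, as in seed and pollen. The dehydrin LEA (AT2G21490) had signals at stages 11-12 of 2532 in Columbia, 1694 in single-copy plants and 937 in arf6 arf8. At stages 13-14 its signals were 48.2, 3.70 and 41.6. No stage 13-14 value came near any stage 11-12 value, and the fitted step was -4.39 ± 0.33 on the log2 scale (SE, 3 pairs, limma adjusted p = 0.0100). LEA was called alone among 8 measured LEA and dehydrin genes, whose median step was -0.63, with 2 positive. The summed signal of the 8 went from 14790 to 18223 in Columbia, from 15651 to 14185 in single-copy plants and from 9462 to 7315 in arf6 arf8. For AT1G23240 the signal went from 6702 to 107 in Columbia, from 3145 to 54.2 in single-copy plants and from 1669 to 83.1 in arf6 arf8. This was the largest fitted fall among the named genes, -4.69 ± 0.35 (SE, limma adjusted p = 0.0100). For AT1G66850 it went from 13000 to 498, from 6929 to 62.4 and from 1008 to 68.6, with a fitted step of -4.56 ± 0.50 (SE, limma adjusted p = 0.0210).

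The other large falls ran in the same way in all 3 genotypes. The 12 largest, which also include AT5G53820, AT4G13230, AT2G29790, AT3G28840, AT5G44300, AT5G61605, AT1G52680, AT3G02480 and PC1, had fitted steps from -4.69 to -3.62. In these 12 genes the smallest fall in any single genotype was -2.41, for AT5G61605 in arf6 arf8. Stage 11-12 and stage 13-14 signals did not overlap for any of the 12. Calling with genotype as a block favours such large and alike steps, and the share of all probe sets without overlap was not counted. AT2G16750 and AT1G23570, ranked by the genotype with the weakest step, fell by at least 3.09 and 2.91 in each genotype.

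Among the called falls with a symbol were 3 sugar channels and 1 expansin. SWEET proteins are channels that let sugars out of cells, and AtVEX1 (AT5G62850), also called SWEET5, is known from the vegetative cell of pollen. Its signal went from 1627 to 82.4 in Columbia, from 758 to 60 in single-copy plants and from 1440 to 153 in arf6 arf8, a step of -3.14 ± 0.24 (SE, limma adjusted p = 0.0100). SWEET7 (AT4G10850) went from 1550 to 226, from 1289 to 109 and from 345 to 60.9, a step of -2.48 ± 0.27 (SE, adjusted p = 0.0216). SWEET3 (AT5G53190) went from 1364 to 325, from 819 to 272 and from 488 to 85.8, a step of -1.78 ± 0.21 (SE, adjusted p = 0.0273). Stage 11-12 values lay above all stage 13-14 values for these 3 genes. They are the called members of a family of 16 measured, of which 13 were not called and 9 had a positive step, and the family's median step of 0.07 equals that over all probe sets.

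EXPA24 (AT5G39310), an expansin of the group of proteins that loosen cell walls, had signals at stages 11-12 of 1088 in Columbia, 879 in single-copy plants and 574 in arf6 arf8. At stages 13-14 they were 156, 88.6 and 18.4, a step of -2.80 ± 0.22 (SE, limma adjusted p = 0.0100). It was called alone among 14 measured expansins, whose median step was -0.14. Also called lower were the cysteine proteinase CP1 (-2.41 ± 0.21), the F-box protein CEG (-1.81 ± 0.22), the outer envelope protein ATOEP16-2 (-1.78 ± 0.24), the calmodulin-like protein CML42 (-1.72 ± 0.20) and the IQ-domain protein iqd21 (-1.52 ± 0.19), each ± SE. CML42 fell from between 569 and 1092 to between 164 and 245, without overlap, and was called alone among 6 calmodulin-like genes. The subtilase SBT4.13 had a step of -2.62 and missed the threshold (adjusted p = 0.0508).

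The called rises were fewer. RALF-like peptides are small secreted signals. RALFL28 (AT4G11510) had signals at stages 11-12 of 28.8 in Columbia, 31.5 in single-copy plants and 155 in arf6 arf8. At stages 13-14 they were 366, 337 and 1121, a step of 2.39 ± 0.19 (SE, limma adjusted p = 0.0100), and the stages did not overlap. It was called alone among 9 measured RALF-like genes, whose median step was -0.29. PRX52 (AT5G05340), a secreted class III peroxidase, went from 63.6 to 476 in Columbia, from 36.9 to 349 in single-copy plants and from 111 to 338 in arf6 arf8, a step of 1.89 ± 0.25 (SE, adjusted p = 0.0384). The other 3 measured members of the peroxidase list were not called. That list holds only genes named as such in the probe table, so peroxidases without a symbol are not counted.

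The remaining 10 named risers have no symbol in the tables used here. AT3G24510 went from 42.5 to 662 in Columbia, from 33.7 to 513 in single-copy plants and from 173 to 790 in arf6 arf8, a step of 2.53 ± 0.25 (SE, limma adjusted p = 0.0165). AT3G56610 went from 96.3 to 464, from 115 to 676 and from 335 to 1540, a step of 1.997 ± 0.19 (SE, adjusted p = 0.0150). For AT1G67640 the arf6 arf8 signal at stages 11-12, 575, already exceeded the Columbia signal at stages 13-14, 329. AT1G56100, AT2G21655, AT2G37130, AT5G09370, AT1G04645, AT5G45910 and AT3G57840 had steps from 1.51 to 2.62.

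**Figure D1:**
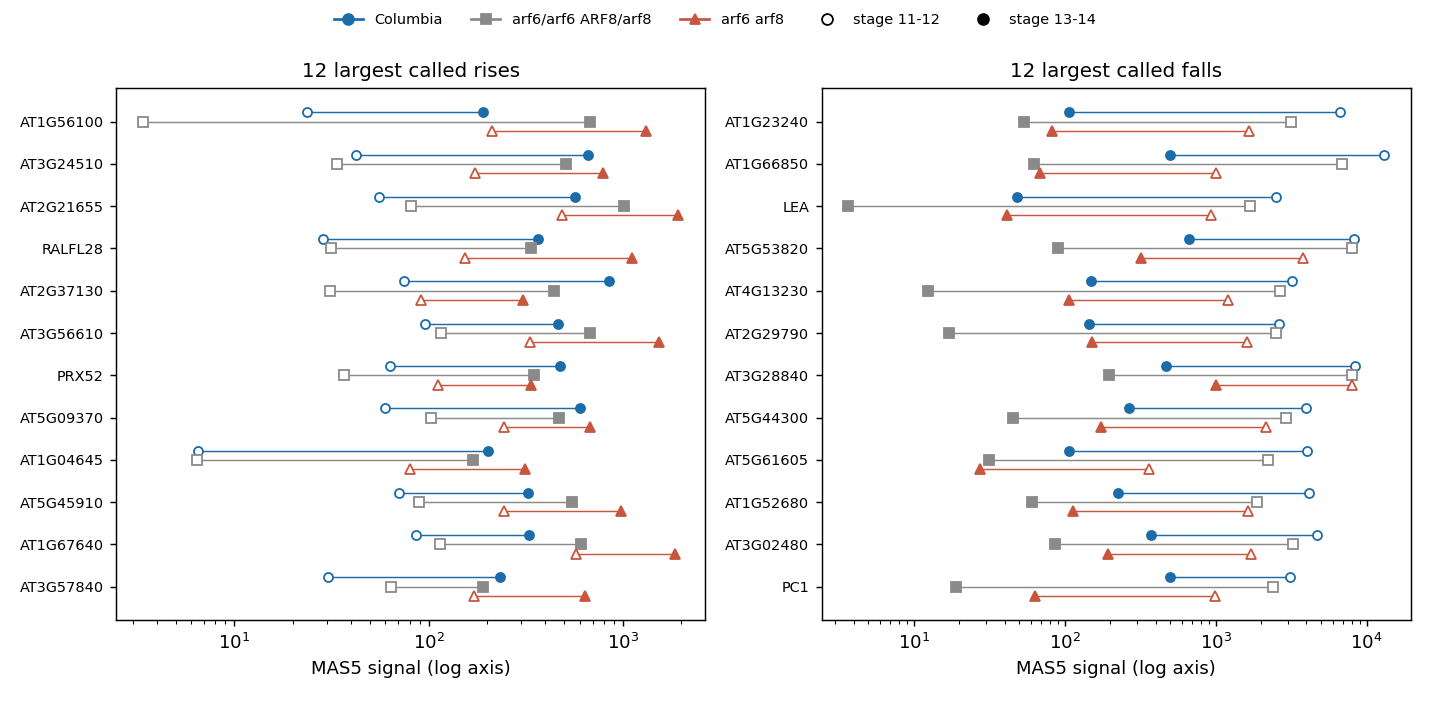
MAS5 signal (log axis) of the 12 largest called rises and the 12 largest called falls at stages 11-12 (open symbols) and 13-14 (filled symbols), with 1 array per symbol and a line joining the stages of a genotype. Every line runs the same way within a gene, which the choice of genes required. The arf6 arf8 line starts to the right of the Columbia line for each riser and to its left for each faller.

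The genes that shared the step had followed different courses before it. Of the 118 probe sets called lower, 42 (35.6%) were at least 2-fold higher at stages 11-12 than at stages 1-10 in all 3 genotypes, against 2.95% of all probe sets tested, and 3 were already 2-fold lower. In Columbia and arf6 arf8 alone, without single-copy plants, 44 were 2-fold higher. EXPA24 went from 20.9 to 1088 in Columbia before its fall, and AT5G42170 went from 110 to 2859. AT1G66850 was instead at 16041 in stage 1-10 flowers of Columbia, and AT2G20870 went from 15045 to 16456 and then to 1336. At stages 13-14, 89 of the 118 (75.4%) lay below their own stage 1-10 signal in all 3 genotypes, against 22.4% of all probe sets. In Columbia and arf6 arf8 alone the count was 90 (76.3%), against 37.4%. The falls were called for high stage 11-12 and low stage 13-14 signals on these same arrays. That choice raises both shares over those of all probe sets, so they describe the called genes and are not an independent result.

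The 21 rises started from low signals. At stages 1-10, 15 of the 21 (71.4%) were under 100 in all 3 genotypes, against 8.54% of all probe sets, and at stages 11-12 there were 2. Their median signal went from 50.2 at stages 1-10 to 70.3 at stages 11-12 in Columbia, from 45.5 to 82.6 in single-copy plants and from 52.2 to 211 in arf6 arf8. In stem, 13 of the 21 (61.9%) and 77 of the 118 falls (65.3%) were under 100 in all 3 genotypes, against 10.4% of all probe sets. The 15, 13 and 77 were the same counts in Columbia and arf6 arf8 alone.

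At stages 11-12 arf6 arf8 already stood nearer to the open-flower level for most of these genes. Its signal was the highest of the 3 genotypes for 19 of the 21 rises (90.5%), against 44.4% of all probe sets. It was the lowest for 90 of the 118 falls (76.3%), against 34.9%. The median difference of arf6 arf8 from Columbia at stages 11-12 was 1.27 for the rises and -0.92 for the falls on the log2 scale, compared with 0.06 over all probe sets. The arf6 arf8 signal of stages 11-12 was below that of Columbia for 115 of the 118 falls and above it for 19 of the 21 rises. It lay between the Columbia signals of the 2 stages for 115 of the falls and 17 of the rises. These genes were called for large steps, which leave few values outside that range, so the second pair of counts adds little to the first. With 1 array per genotype and stage the difference between arf6 arf8 and Columbia was not tested, and a difference in how far the sampled buds had developed cannot be told apart from a genotype effect.

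The change from the stage before, which uses the same stage 11-12 arrays, was offset in the same way. From stages 1-10 to 11-12 the 118 falls had a median change of 1.96 in Columbia, 1.07 in single-copy plants and 0.76 in arf6 arf8. The 21 rises had a median change of 0.16 in Columbia, 0.46 in single-copy plants and 1.35 in arf6 arf8. By stages 13-14 arf6 arf8 was still highest for 16 of the 21 rises (76.2%), against 36.2% of all probe sets, whereas it was lowest for 48 of the 118 falls (40.7%), against 32.7% of all probe sets. The step from stages 11-12 to 13-14 was smaller in arf6 arf8 than in Columbia for 95 of the 118 falls and 12 of the 21 rises.

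**Figure D2:**
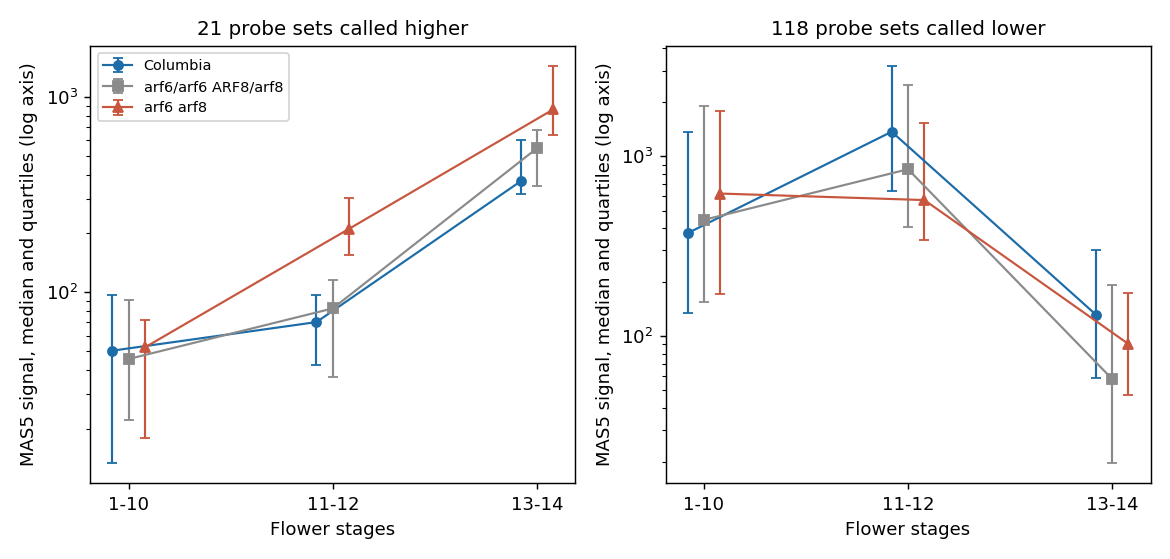
Median MAS5 signal and quartiles (log axis) of the 21 probe sets called higher and the 118 called lower, by flower stages and genotype, where bars show the spread over probe sets and not over plants. The Columbia median of the falls goes from 374 to 1371 and then to 132, while that of arf6 arf8 goes from 621 to 572 and then to 90.5.

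Lists of genes grouped by role gave few calls. In 70 lists with a measured member, 449 probe sets were tested, of which 2 were called higher (RALFL28 and PRX52) and 6 lower (EXPA24, AtVEX1, SWEET7, SWEET3, LEA and CML42). That is 1.78%, beside 0.826% of all probe sets.

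In the short lists of tapetum, sperm cell and MIKC* MADS-box genes, steps were mostly negative and did not pass the test. The tapetum and pollen wall list had 4 measured members, none called, with a median step of -0.59 and 1 positive step. In it ATA27 (AT1G75940), a beta-glucosidase of the tapetum, went from 2878 to 63.2 in Columbia, from 434 to 3.90 in single-copy plants and from 118 to 9.10 in arf6 arf8, a step of -3.12 ± 0.55 (SE, limma adjusted p = 0.0827). Stage 1-10 signals of ATA27 were 10042, 11509 and 7889, so most of its signal had gone before stages 11-12, least so in Columbia. The summed signal of the 4 tapetum markers lay between 1205 and 4382 at stages 11-12 and between 907 and 1308 at stages 13-14. In Columbia it went from 4382 to 923 and in arf6 arf8 from 1231 to 907, whereas in single-copy plants it went from 1205 to 1308, against the direction of the called falls. Its part in them was not tested.

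AGL104 and AGL66 are MADS-box factors of maturing pollen, from the MIKC* group. Of 4 measured genes of this group none was called, 1 had a positive step and the median was -0.72. AGL104 went from 433 to 125 in Columbia, from 333 to 126 in single-copy plants and from 342 to 138 in arf6 arf8, a step of -1.22 ± 0.19 (SE, limma adjusted p = 0.0627). AGL66 had a step of -1.21 (adjusted p = 0.108). For both genes all stage 13-14 values lay below all stage 11-12 values.

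MGH3, a histone H3 of the male gametes, had signals of 483, 317 and 167 at stages 11-12 and 159, 180 and 11.1 at stages 13-14. Its step was -1.28 (limma adjusted p = 0.117), and the single-copy value at stages 13-14 lay above the arf6 arf8 value at stages 11-12. None of the 10 pollen and pollen tube genes or the 2 sperm cell genes was called. Of the 10 pollen genes 6 had a positive step, beside 57.7% of all probe sets, with a median of 0.05. The summed pollen signal lay between 2900 and 4848 at stages 11-12 and between 3429 and 5437 at stages 13-14, and between 1352 and 1618 in stem. The sperm cell sum was 269 to 696 and then 65.2 to 264.

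Ovule genes had positive steps that did not pass the test. All 7 measured members, of 9 on the array, had a positive fitted step, beside 57.7% of all probe sets. Their median step was 0.36 and none was called. BAN (AT1G61720), an anthocyanidin reductase known from the inner ovule wall and seed coat, went from 11.6 to 163 in Columbia, from 5.20 to 327 in single-copy plants and from 67.1 to 242 in arf6 arf8, a step of 1.96 ± 0.31 (SE, limma adjusted p = 0.0627). EC1.5 and EC1.2 encode peptides that the egg cell secretes at fertilisation. Their steps were 1.16 (limma adjusted p = 0.110) and 1.11 (adjusted p = 0.125). Their stage 13-14 signals, 94.5 to 177, lay above all their stage 11-12 signals. BAN, EC1.5 and EC1.2 were under 100 on each stage 11-12 array, so they passed the filter only through stages 13-14. The filter thus favoured their positive steps, and their signs and lack of overlap are not read as a result. The summed ovule signal was 783 to 838 at stages 11-12 and 1222 to 1763 at stages 13-14.

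No hormone gene measured passed the test. None of 3 Aux/IAA, 4 GH3, 3 YUCCA, 4 gibberellin, 2 jasmonate synthesis, 4 jasmonate response and 2 ethylene genes was called. GH3.17, of the family that conjugates auxin to amino acids, went from 444 to 1722 in Columbia, from 259 to 1432 in single-copy plants and from 303 to 555 in arf6 arf8, a step of 1.63 (limma adjusted p = 0.104). The reference genes GAPC2 and PEX4 had steps of 0.07 and -0.05. Of 7 nuclear photosynthesis genes and 31 plastid genes of the photosystems and the cytochrome complex none was called, with medians of -0.11 and 0.02. The summed carpel signal was 3008 to 5618 and then 2382 to 5266, that of secondary wall genes 381 to 798 and then 328 to 476, and that of stem and leaf genes 8908 to 12395 and then 9913 to 13619.

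The number of 2-fold steps was largest in single-copy plants and smallest in arf6 arf8. Counting ratios of (signal + 50) of at least 2 where the brighter array reached 200, with no test, 524 probe sets (3.11%) were higher and 497 (2.95%) lower in Columbia. In arf6 arf8 165 (0.981%) were higher and 379 (2.25%) lower. In single-copy plants 1830 (10.9%) were higher and 1125 (6.69%) lower. The median absolute step was 0.24 in Columbia, 0.20 in arf6 arf8 and 0.49 in single-copy plants.

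In all 3 genotypes 145 probe sets (0.862%) were 2-fold lower and 38 (0.226%) were 2-fold higher. Columbia and arf6 arf8, without the single-copy array that stood apart, shared 191 that were lower and 71 that were higher. Of those 2-fold lower in Columbia 43.9% were also 2-fold lower in arf6 arf8, with a median step there of -0.89, and 59.4% in single-copy plants. Of those 2-fold higher in Columbia 13.9% were also 2-fold higher in arf6 arf8, with a median step of 0.30, and 46.4% in single-copy plants. Over all probe sets, with a signal of 200 also required, 2.25% were 2-fold lower and 0.981% higher in arf6 arf8. In single-copy plants these shares were 6.69% and 10.9%. Taken from the other side, 50.4% of those lower and 53.9% of those higher in arf6 arf8 were so in Columbia. The shares over all probe sets in Columbia were 2.95% and 3.11%.

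The largest steps within a single genotype, at a signal of 500 or more, were partly shared. In Columbia AT5G39520 went from 138 to 2664, with 278 and 811 in single-copy plants and 1773 and 3242 in arf6 arf8, so arf6 arf8 was above the others at stages 11-12. AT5G20390 went from 180 to 2015 in Columbia and from 211 to 1851 in single-copy plants, and from 195 to 287 in arf6 arf8. AT2G43620 and AT2G43590 went from 30.8 to 602 and from 43.1 to 663 in Columbia, with no signal above 46 in the other genotypes at either stage.

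Among the largest falls, AT5G55720 went from 2377 to 6.3 in Columbia, from 1763 to 30.4 in single-copy plants and from 226 to 49.5 in arf6 arf8. AT1G54860 went from 1725 to 5.4, from 364 to 2.9 and from 120 to 2.5. These genes missed the threshold for the shared step, with limma adjusted p of 0.0892 and 0.0846. In arf6 arf8 the largest fall at such a signal was that of AT3G28780, from 3726 to 193, beside 4299 to 604 in Columbia and 3175 to 301 in single-copy plants, a called step of -3.30 (limma adjusted p = 0.0116). AT4G33860 was at 6.6 and 11.3 in arf6 arf8, while it went from 6.5 to 492 in Columbia and from 3.4 to 1213 in single-copy plants.

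**Figure D3:**
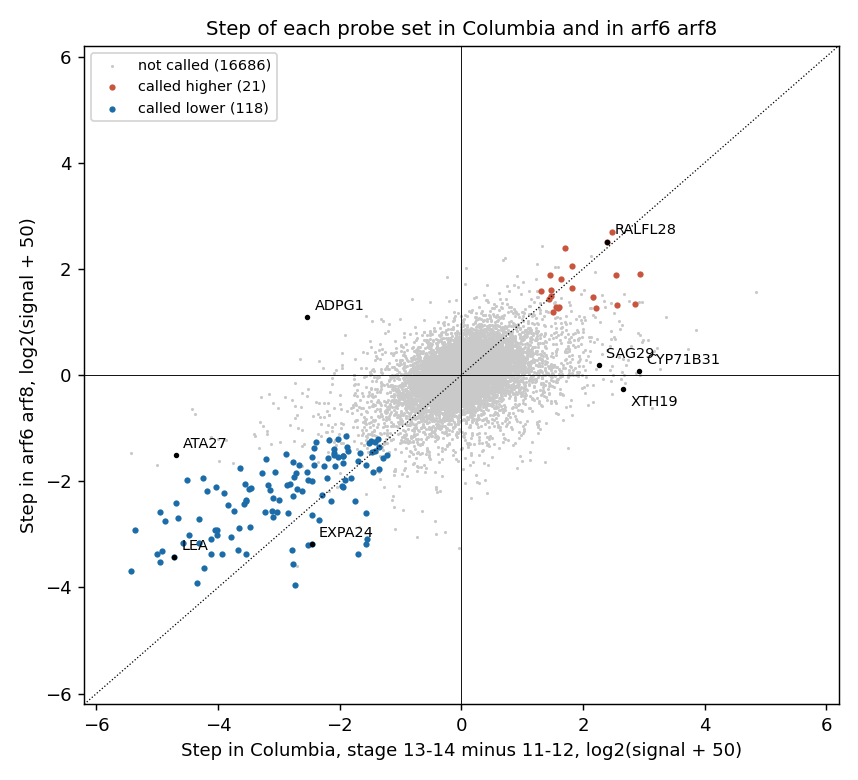
Step of each of 16825 probe sets from stages 11-12 to 13-14 in Columbia (x axis) and arf6 arf8 (y axis), on the log2(signal + 50) scale with 1 pair of arrays per axis, where colours mark the called probe sets and the dotted line marks equal steps. Pearson's r across probe sets, which are not independent replicates, is 0.519, and several genes with a large positive step in Columbia, such as SAG29, XTH19 and CYP71B31, lie along 0 in arf6 arf8.

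**Figure D4:**
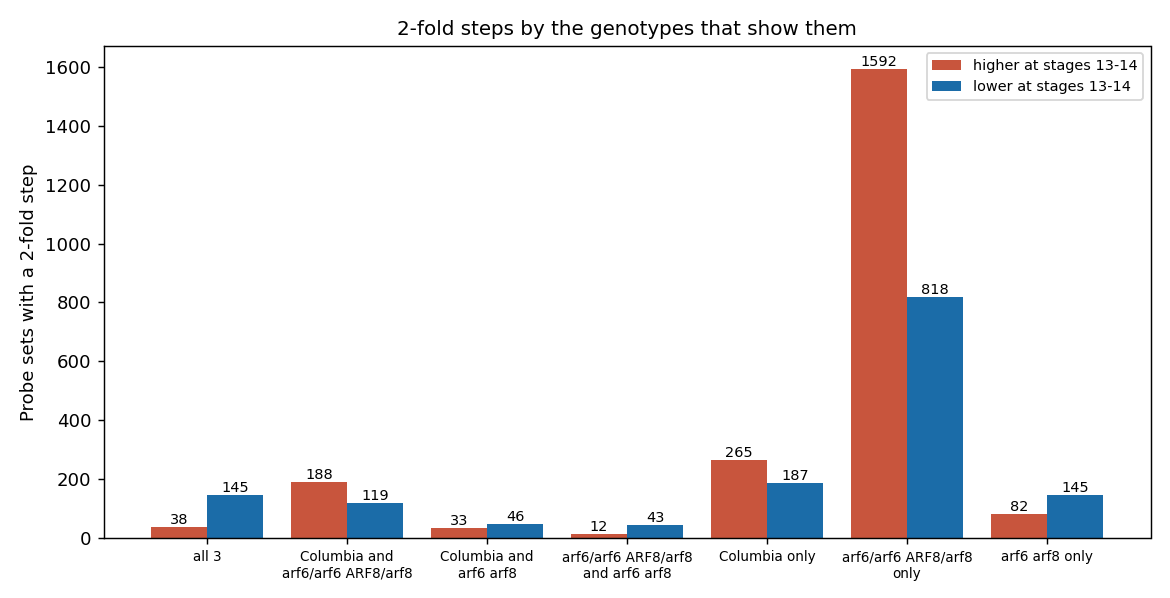
Number of probe sets with a 2-fold step, split by the genotypes that show it, for steps up and down. Single-copy plants alone account for 1592 probe sets that are higher and 818 that are lower, while 38 and 145 are so in all 3 genotypes.

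Most steps of the single-copy plants were theirs alone. Of their steps up 87.0% and of their steps down 72.7% reached 2-fold in no other genotype, compared with 50.6% and 37.6% for Columbia and 49.7% and 38.3% for arf6 arf8. The 1592 that were higher had a median step of 0.01 in Columbia and 0.04 in arf6 arf8, and the 818 that were lower had -0.08 and -0.03. The plastid transcripts psbK and atpA were among the largest. For psbK the signal went from 134 to 2857 in single-copy plants, from 359 to 209 in Columbia and from 556 to 444 in arf6 arf8. For atpA it went from 76.8 to 1555 in single-copy plants, from 324 to 98.2 in Columbia and from 3481 to 861 in arf6 arf8. The array with the low GAPDH ratio and low spike signal is the stage 13-14 member of this pair, and the part of these control values in the single-copy steps was not tested.

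Steps of Columbia and single-copy plants that had no counterpart in arf6 arf8 were seen for SWEET9, CYP71B31, XTH19 and SAG29. Among 226 probe sets 2-fold higher in both Columbia and single-copy plants, 40 (17.7%) were also 2-fold higher in arf6 arf8, and 127 (56.2%) differed by less than 0.5 on the log2 scale there. Among 264 that were 2-fold lower in both, 154 (58.3%) were 2-fold lower in arf6 arf8 and 46 (17.4%) differed by less than 0.5. Chosen in Columbia alone, without single-copy plants, 73 of 524 higher probe sets (13.9%) were 2-fold in arf6 arf8 and 301 (57.4%) differed by less than 0.5 there, and of 497 lower ones 218 (43.9%) and 134 (27.0%). Over all probe sets, at a signal of 200, 0.981% were 2-fold higher and 2.25% lower in arf6 arf8. The median absolute step there was 0.20, so most probe sets differed by less than 0.5. The 56.2% and 57.4% are therefore not read as an excess of unmoved probe sets. The fitted difference of the arf6 arf8 step from the mean of the other steps, on all 12 arrays, was called for 0 of 17647 probe sets (0%) by limma. The smallest adjusted p was 0.279. At an unadjusted limma p under 0.05 there were 722 (4.09%), no more than that threshold alone would give. Without the Columbia stage 13-14 array 84 were called, and in the 6 arrays alone, with 1 residual degree of freedom, 14. The genes below are therefore given by their values, and none of their differences passed the test.

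In some cases the signal stayed low in arf6 arf8. SWEET9 (AT2G39060), the sugar channel through which nectaries release sucrose, had signals of 1310 and 5521 in Columbia, 1351 and 5201 in single-copy plants and 46.7 and 83.9 in arf6 arf8 at the earlier and later stages. The 2 nectary genes summed to between 216 and 6648 at stages 13-14, the lowest in arf6 arf8, and fewer nectary cells and less RNA per cell cannot be told apart there. CYP71B31 (AT3G53300), of the cytochrome P450 enzymes, went from 839 to 6655 in Columbia and from 65.6 to 3030 in single-copy plants, and was at 1.4 and 3.9 in arf6 arf8. Of 13 measured genes of its CYP71B subfamily, from 19 on the array, 12 had a positive fitted step, beside 57.7% of all probe sets. None was called, and the median was 0.36.

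XTH19 (AT4G30290) encodes an enzyme that cuts and rejoins xyloglucan chains in the wall. It went from 342 to 2428 in Columbia, from 203 to 644 in single-copy plants and from 39.3 to 24.1 in arf6 arf8. None of the 7 measured genes of this family was called for the shared step, and their median step was 0.55 in Columbia, 0.21 in single-copy plants and -0.27 in arf6 arf8. The senescence-associated sugar channel SAG29 went from 306 to 1651 in Columbia, from 172 to 1422 in single-copy plants and from 257 to 298 in arf6 arf8. The adjusted p of the difference in step was 0.727 for SWEET9, 0.972 for CYP71B31, 1.00 for XTH19 and 0.715 for SAG29 by limma.

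In other cases arf6 arf8 was already high in the closed bud. The protease GAMMA-VPE (AT4G32940), which processes vacuolar proteins, went from 1658 to 5499 in Columbia and from 1119 to 5472 in single-copy plants, and stood at 5055 and 6967 in arf6 arf8. All 4 measured vacuolar processing enzyme genes had a positive step, beside 57.7% of all probe sets, and none was called. Their median step was 0.81 in Columbia, 1.63 in single-copy plants and 0.45 in arf6 arf8. The serine carboxypeptidase-like gene scpl38 (AT2G05850) went from 311 to 2815, from 528 to 2464 and from 1947 to 3120. Over the 127 unmoved probe sets that were higher in the other genotypes, the mean arf6 arf8 level lay nearer to the Columbia level of stages 13-14 for 46 and nearer to that of stages 11-12 for 81. Among the 46 unmoved probe sets that were lower in the other genotypes it lay nearer to the Columbia level of stages 13-14 for 35.

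For 3 of the 10 measured pollen and pollen tube genes arf6 arf8 had the highest signal at stages 11-12 and the lowest at stages 13-14. It was highest at stages 11-12 for 6 of the 10, against 44.4% of all probe sets, and lowest at stages 13-14 for 4, against 32.7%. The share of all probe sets with both was not counted. With 10 genes these counts do not set pollen genes apart, and the genes below are given by their values. ANX2 (AT5G28680), a receptor kinase that keeps the growing pollen tube intact, went from 243 to 678 in Columbia, from 170 to 779 in single-copy plants and from 429 to 380 in arf6 arf8. PLIM2a, which bundles actin in pollen and is not among these 10 genes, went from 2468 to 5133, from 2406 to 5249 and from 3372 to 2928. PLIM2a and ANX2 both had their highest signal of stages 11-12 and their lowest of stages 13-14 in arf6 arf8. AT59, a pectate lyase of pollen, followed the same order, with arf6 arf8 at 1662 and 1456 and Columbia at 1003 and 2854. AT59 was chosen after its values were seen.

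**Figure D5:**
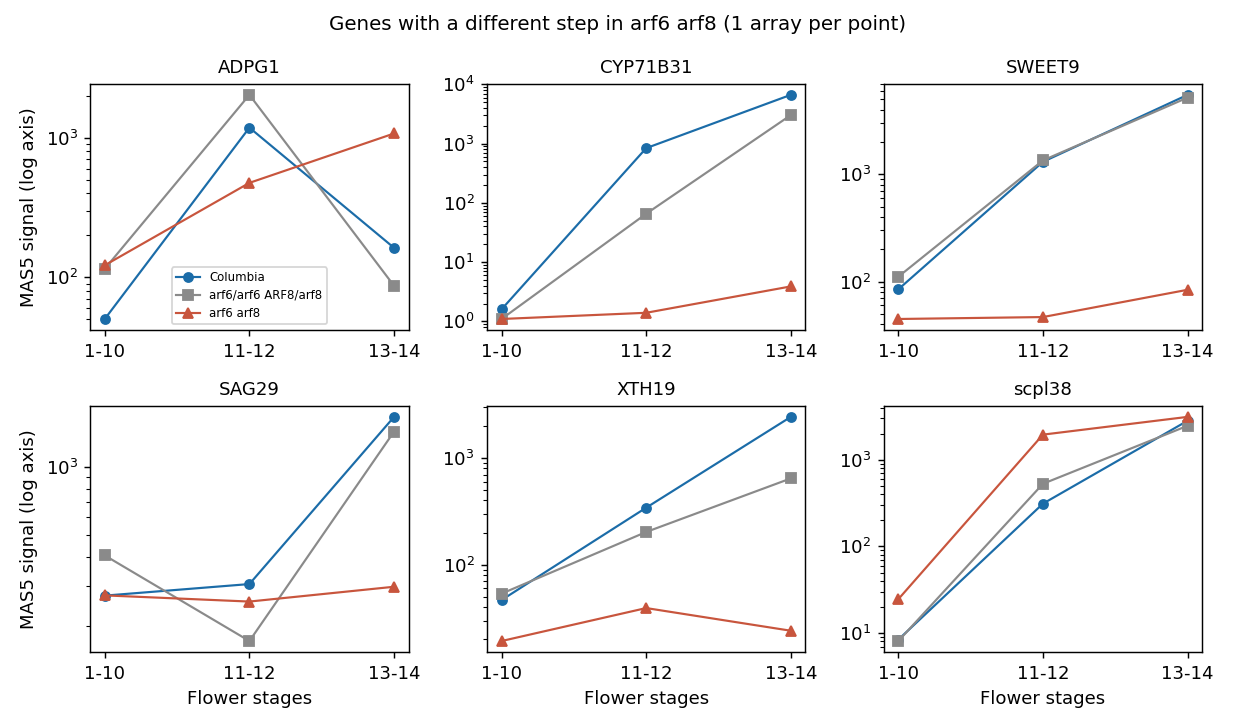
MAS5 signal (log axis) of ADPG1, CYP71B31, SWEET9, SAG29, XTH19 and scpl38 by flower stages in each genotype, with 1 array per point. CYP71B31, SWEET9, SAG29 and XTH19 end at 298 or less in arf6 arf8, whereas scpl38 is at 1947 there by stages 11-12 and ADPG1 goes from 474 to 1070.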

How the data were processed

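Biotin-labelled cRNA was hybridised to 1 oligonucleotide array per genotype and tissue. The deposited signal intensities were computed by the authors with MAS5, per the submitters' processing notes, which give no version. They are linear, and each array's mean after trimming 2% of values at each end was between 499.2 and 499.8, as global scaling leaves it. Precision is limited by the number of arrays.

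Values were transformed as log2(signal + 50), so fold changes of dim probe sets are understated. After removal of 64 control probe sets, 16825 of 22746 were kept for the step (signal of 100 or more on at least 1 of 6 arrays) and 17647 for the difference in step (on at least 1 of 12). The step was fitted in limma 3.58.1 (R 4.3.3; lmFit, eBayes with a trend) with genotype as a block and 2 residual degrees of freedom. The pairing comes from the genotype in the titles, and replicates carry no number that pairs them otherwise. The difference in step was fitted with genotype, tissue and a tissue-specific arf6 arf8 term (3 residual degrees of freedom). Tests were two-sided, with Benjamini-Hochberg adjustment over all kept probe sets and a threshold of 0.05. Whether samples came from separate cultures is not stated. The fits were tested on simulated data.

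Gene names come from the platform's probe table joined to RefSeq TAIR10.1 by locus: 13513 probe sets have 1 gene, 503 several, and 8730 others are not listed. No positions or sequences are given. The text names the 12 largest called rises and falls (1 gene, the same sign in 3 genotypes, mean signal of 200 or more), the same number ranked by the weakest genotype, the 6 largest steps in each genotype with a signal of 500 or more, and up to 4 members per gene list. The comparison, its members and the lists were chosen with earlier results of these data known. Lists hold only genes that the probe table names, and many are short. Alternatives were other pseudocounts, filters, quantile normalization, no trend, no genotype block, other sets of arrays and leaving out arrays.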

Additional observations from a re-analysis of the deposited data

Results flagged for a closer look

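2 genes moved at least 2-fold in opposite directions in arf6 arf8 and in the other genotypes. ADPG1 (AT3G57510) encodes a polygalacturonase that acts where anthers and fruits split open. Its signal went from 1178 to 163 in Columbia and from 2022 to 86.9 in single-copy plants, and from 474 to 1070 in arf6 arf8, a step of 1.1 there on the log2 scale. AT3G20530 went from 487 to 1038 in Columbia and from 598 to 1368 in single-copy plants, and from 928 to 409 in arf6 arf8, a step of -1.09. The limma adjusted p of the difference in step over all 17647 probe sets was 0.362 for ADPG1 and 0.509 for AT3G20530, so neither difference passed. In all, 8 of 16825 probe sets had such opposite 2-fold steps, and these 2 were those with 1 gene and a signal of 200 or more.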

How the results depend on the processing

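Of 360 values for 33 named genes under the alternatives for the step, 258 stayed past the threshold, with 7 of 33 without the single-copy pair, 14 of 33 without the genotype block and 0 of 33 without the filter. The called genes have 1 sign in all 3 genotypes, which fixes their direction when a pair is left out. The count of 139 calls (21 higher, 118 lower) lay between 111 and 134 under pseudocounts of 16 and 200, a filter of 200 on 3 of 6 arrays, quantile normalization and no trend, though the rises fell to 13 under that filter and under quantile normalization. It went to 0 without the filter (0 higher, 0 lower) and to 1935 without adjustment (998 higher, 937 lower). With no genotype block, so without the pairing, it went to 77 (7 higher, 70 lower), of which 73 were among the 139, and with all 12 arrays to 337 (94 higher, 243 lower). Leaving out 1 pair gave 22 to 768 calls (3 to 387 higher, 19 to 381 lower). The difference in step stayed at 0 calls under each setting run except 6 arrays alone (14) and leaving out 1 array, which gave 0 to 84, with 84 for the Columbia stage 13-14 array. It could not be fitted without the arf6 arf8 array of stages 11-12 or 13-14.

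For 2-fold steps the counts in Columbia, single-copy plants, arf6 arf8 and all 3 were 307, 918, 55 and 13 higher with a pseudocount of 200, and 314, 682 and 199 lower in the first 3. With a fold of 3 they were 188, 494, 26 and 6 higher and 237, 373, 150 and 77 lower. A signal of 500 gave 91 higher and 227 lower in arf6 arf8 and 16 and 81 in all 3. Columbia and arf6 arf8 alone, an alternative chosen after seeing the data, shared 71 rises and 191 falls. Chosen likewise, in Columbia alone, 27.0% of the 2-fold lower probe sets differed by less than 0.5 in arf6 arf8, against 17.4%. The causes were not tested. Probe sets under a signal of 100 on all arrays were not tested for a step.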

Other observations

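A few called falls lie close together in the order of annotated genes. Of 69 loci called lower, 7 had another locus called lower within 10 genes of it. How many would do so among 69 loci drawn from all those measured was not computed, so the count is not read as clustering. The 7 are AT3G28770, AT3G28780 and AT3G28840, AT1G23570 and AT1G23590, and AT2G04570 and AT2G04675. AT3G28770 went from 366 to 90.9 in Columbia, from 253 to 49.3 in single-copy plants and from 272 to 49.1 in arf6 arf8. AT3G28840 went from 8362 to 470, from 8019 to 198 and from 8014 to 1012. AT1G23590 went from 597 to 55.5, from 353 to 15.5 and from 236 to 13.2. Whether cross-hybridisation between related neighbours adds to these signals was not tested.

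PPDK and FDH were 2-fold higher in Columbia and single-copy plants and not in arf6 arf8. Pyruvate orthophosphate dikinase, PPDK, went from 1196 to 2682 in Columbia, from 1526 to 3407 in single-copy plants and from 3408 to 4071 in arf6 arf8. Formate dehydrogenase, FDH, went from 1935 to 4599, from 2191 to 4455 and from 3912 to 4443. For both genes arf6 arf8 in the closed bud had a signal nearer to the Columbia signal of stages 13-14 than to that of stages 11-12. These genes were chosen after their values were seen.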
